A study of Mus musculus with 4 samples.

Results

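The genes described here build the antigen presentation machinery of the mouse liver: the class I and class II molecules of the major histocompatibility complex (MHC, called H2 in the mouse) and the proteins that cut, carry and load their peptides. Members were taken by gene symbol alone, as the probe sets with exactly 1 platform symbol that starts with H2- or is one of B2m, Cd74, Ciita, Tap1, Tap2, Tapbp, Psmb8, Psmb9, Psmb10, Nlrc5, Cd1d1, Erap1, Ifi30 and Mr1. This gave 71 of 45101 probe sets, for 37 genes. Total liver RNA of 4 male C57BL/6J mice, 12 weeks old, on normal chow and without food for 24 h, was labelled with biotin and measured on Affymetrix arrays of 1 colour. There were 2 Cnot3+/- mice, called Cnot3 heterozygotes in the labels, which do not describe the allele further, and 2 wild-type mice. The arrays are named Cnot3+/- 1, Cnot3+/- 2, wild-type 1 and wild-type 2 after the replicate numbers of the labels, which call them biological replicates. Values are log2 RMA expression, a background-corrected and normalized summary of the probes in a probe set. All differences are Cnot3+/- minus wild-type on that log2 scale.

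Class I molecules sit on nearly all nucleated cells as a heavy chain with the light chain beta-2 microglobulin, and display peptides made in the cytosol by the proteasome. Those peptides are pumped into the endoplasmic reticulum by the TAP transporter, trimmed there, and loaded with the help of tapasin. Class II molecules are made mainly by professional antigen-presenting cells, which in the liver include Kupffer cells and dendritic cells, and display peptides from endosomes after the invariant chain has been removed. Interferon gamma induces both branches, through the transactivators NLRC5 for class I and CIITA for class II. CNOT3, the protein of the altered gene, is a subunit of the CCR4-NOT complex that shortens mRNA tails.

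Cnot3+/- 2 stood apart from the other arrays. Over the 27061 probe sets kept by a filter on dim values, it lay at least 2-fold from Cnot3+/- 1 in 723. It lay that far from wild-type 1 in 741 and from wild-type 2 in 508. Cnot3+/- 1 lay that far from wild-type 1 in 373 and from wild-type 2 in 241, and the wild-type arrays from each other in 166. Because the Cnot3+/- arrays differed this much, values are given for each of them beside the group's difference wherever a result turns on them. The value of Cnot3+/- 1 against the wild-type mean is the difference that remains without Cnot3+/- 2. The Cnot3 probe set of highest mean did not separate the genotypes, at 7.70 and 7.86 in Cnot3+/- livers, against 7.48 and 8.14 in wild-type livers (difference -0.03 with an SE of 0.25, 2 mice per group, limma adjusted p = 1), so it does not check the labels. A second Cnot3 probe set stood at 5.54 and 5.54 in Cnot3+/- livers, against 5.33 and 5.52 in wild-type livers (difference 0.11 with an SE of 0.14), with both Cnot3+/- livers above both wild-type livers. Neither probe set was lower in the livers labelled Cnot3+/- beyond its error. Hepatocyte transcripts bore out the tissue label, with Alb, which encodes albumin, between 14.80 and 14.87 on all arrays. The labels name no batch.

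No member passed the test between genotypes. With limma and Benjamini-Hochberg adjustment over all 27061 kept probe sets, 0 of the 53 members tested had an adjusted p under 0.05. The background was 2 higher probe sets, 0.00739% of those tested, and 0 lower ones, 0%. At an unadjusted p under 0.05 there was 1 of the 53, Nlrc5, and 3.72% of all probe sets. The standard errors of the members ran up to 1.05, because the Cnot3+/- arrays differed so much in the class II genes. The direction of a group difference therefore says little here without the values of each array.

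The Cnot3+/- livers differed from each other. On Cnot3+/- 2, 52 of the 71 members lay above both wild-type arrays (28.3% of all probe sets did), and 17 lay at least 2-fold above both (0.931% of all). On Cnot3+/- 1, 13 members lay above both wild-type arrays (31.4% of all) and 39 lay below both (33.2% of all), with 0 members 2-fold above both (0.124% of all). The median of the 71 members against the wild-type mean was 0.34 on Cnot3+/- 2 and -0.12 on Cnot3+/- 1, where the medians over all probe sets were -0.03 and 0.00. As a group, 49 members were higher in Cnot3+/- livers and 22 were lower, and the median difference was 0.13, beside -0.02 over all probe sets, of which 45.6% were higher. Without Cnot3+/- 2 the higher members numbered 17. Between arrays of 1 genotype, 63 members were higher on Cnot3+/- 2 than on Cnot3+/- 1 (45% of all probe sets), and 46 were higher on wild-type 2 than on wild-type 1 (50.4% of all).

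**Figure D1:**
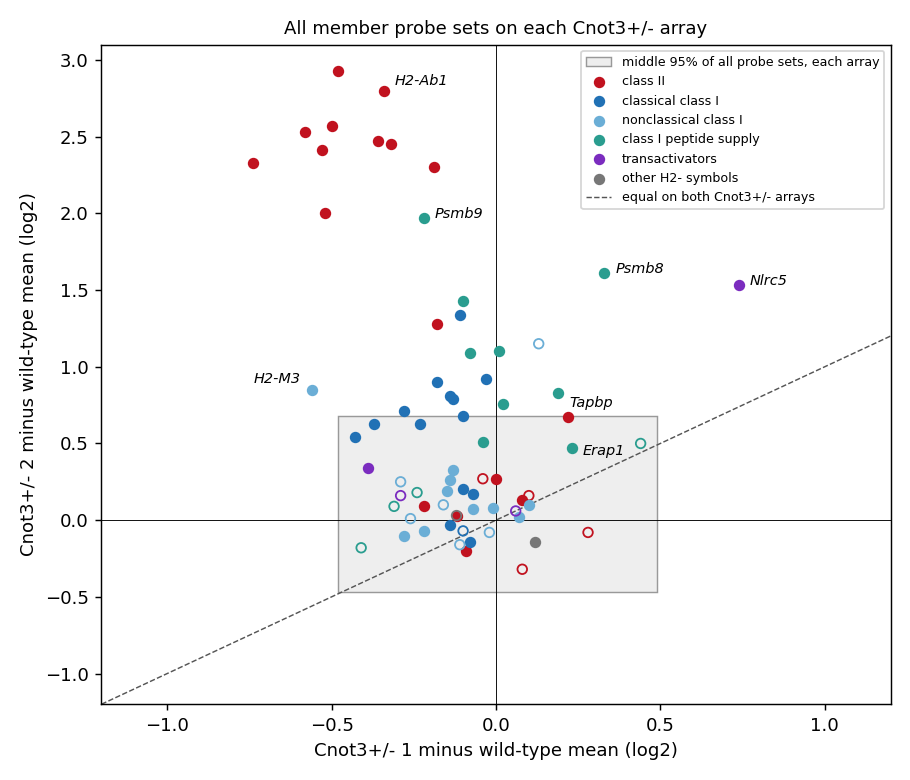
Each point is 1 of the 71 member probe sets, with its log2 value on Cnot3+/- 1 (x axis) and on Cnot3+/- 2 (y axis) minus the mean of the wild-type arrays; open points were left out of the test as dim, and the grey box holds the middle 95% of all probe sets on each axis. Of the class II points, 11 lie at the top left, high on Cnot3+/- 2 and below wild-type on Cnot3+/- 1, whereas Nlrc5 lies to the right, above wild-type on both.

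Among the members, class II genes had the largest values on Cnot3+/- 2 against the wild-type mean. H2-Ab1, the beta chain of I-A, the class II molecule of this strain, stood at 7.37 and 10.51 in Cnot3+/- livers, against 7.55 and 7.87 in wild-type livers. H2-Aa, its alpha chain, stood at 8.75 and 11.68 in Cnot3+/- livers, against 9.06 and 9.49 in wild-type livers. H2-Eb1, the beta chain of the I-E molecule, stood at 7.81 and 10.65 in Cnot3+/- livers, against 7.89 and 8.46 in wild-type livers. For each of these chains Cnot3+/- 1 was the lowest of the 4 arrays and Cnot3+/- 2 by far the highest, so the groups overlapped. Against the wild-type mean, Cnot3+/- 2 was 6.98-fold for H2-Ab1, 5.54-fold for H2-Eb1 and 5.30-fold for H2-Aa. The same ratios on Cnot3+/- 1 were 0.789, 0.777 and 0.692. The group differences were 1.23 (SE 0.97) for H2-Ab1, 1.05 (SE 0.89) for H2-Eb1 and 0.94 (SE 0.91) for H2-Aa, each with a limma adjusted p of 1. Their 95% intervals ran from -1.21 to 3.67, from -1.18 to 3.29 and from -1.35 to 3.23.

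The partners of the class II chains also stood highest on Cnot3+/- 2. Cd74, the invariant chain that fills the groove until the endosome, stood at 8.15 and 11.22 in Cnot3+/- livers, against 8.37 and 8.92 in wild-type livers. H2-DMa, one chain of the DM molecule that exchanges peptides, stood at 5.38 and 7.91 in Cnot3+/- livers, against 5.69 and 6.13 in wild-type livers. Ifi30, the lysosomal thiol reductase GILT that unfolds antigens, stood at 7.85 and 9.31 in Cnot3+/- livers, against 8.20 and 7.85 in wild-type livers. Cnot3+/- 2 was 5.96-fold the wild-type mean for Cd74, 4.01-fold for H2-DMa and 2.42-fold for Ifi30. The group differences were 1.04 (SE 0.96), 0.74 (SE 0.79) and 0.55 (SE 0.47), with limma adjusted p = 1 for each. Without Cnot3+/- 2 they were -0.50, -0.52 and -0.18. A second H2-DMa probe set read otherwise, at 5.16 and 5.62 in Cnot3+/- livers, against 4.78 and 5.11 in wild-type livers, with no overlap and a difference of 0.44 (SE 0.22) that was 0.22 without Cnot3+/- 2.

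All 7 probe sets of H2-Aa and H2-Ab1 were high on Cnot3+/- 2, with values from 2.30 to 2.93 above the wild-type mean. On Cnot3+/- 1 the same 7 lay from -0.74 to -0.19. The arrays ran in the order Cnot3+/- 1, wild-type 1, wild-type 2, Cnot3+/- 2 from low to high in 6 of these 7, in 9 of the 21 class II probe sets and in 4.05% of all probe sets, an order singled out after the values were seen. These probe sets end in _x_at, _s_at or _a_at, and the first 2 kinds can match transcripts of more than 1 gene. The 7 are therefore not independent readings.

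Other class II members stayed near wild-type on every array. H2-DMb2, a beta chain of DM, stood at 5.16 and 5.43 in Cnot3+/- livers, against 5.26 and 5.07 in wild-type livers. H2-Eb2 stood at 5.71 and 5.86 in Cnot3+/- livers, against 5.69 and 5.97 in wild-type livers. H2-Oa, a chain of the DM inhibitor DO, stood at 4.09 and 4.40 in Cnot3+/- livers, against 4.46 and 4.16 in wild-type livers. The groups overlapped in all of these, and the differences were 0.13 (SE 0.17), -0.04 (SE 0.16) and -0.07 (SE 0.19). H2-Ob, the other DO chain, was left out as dim, with values from 2.68 to 2.99.

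H2-Ea is a special case. C57BL/6 mice carry the b haplotype of H2, in which the gene of the I-E alpha chain is not expressed because its promoter is deleted, and the RefSeq gene table lists it as a transcribed pseudogene. A pair of its probe sets were left out as dim, with values from 2.33 to 3.26. The third read 7.37 and 7.26 in Cnot3+/- livers, against 7.41 and 7.51 in wild-type livers (difference -0.14, SE 0.14, limma adjusted p = 1). None of the H2-Ea probe sets shared the height of the other class II chains on Cnot3+/- 2, where they lay from -0.32 to -0.08 of the wild-type mean.

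Over all 21 class II probe sets, 17 were higher in Cnot3+/- livers and 4 were lower, and the median difference was 0.55. The median against wild-type was 1.28 on Cnot3+/- 2 and -0.19 on Cnot3+/- 1, and 11 of the 21 lay at least 2-fold above both wild-type arrays on Cnot3+/- 2. Markers of Kupffer cells and other macrophages stood high on the same array. Of these 15 markers, all kept by the filter, 13 lay at least 2-fold above both wild-type arrays on Cnot3+/- 2, and their mean level was 7.60 and 9.53 in Cnot3+/- livers, against 7.86 and 8.02 in wild-type livers. Marco, a scavenger receptor gene of macrophages, stood at 6.40 and 9.49 in Cnot3+/- livers, against 5.73 and 5.85 in wild-type livers. Cd5l, which macrophages secrete, stood at 9.86 and 11.87 in Cnot3+/- livers, against 9.61 and 9.79 in wild-type livers. These 2 genes lay above both wild-type arrays on Cnot3+/- 1 as well, unlike the class II chains, whereas 11 of the 15 markers lay below both wild-type arrays there. Markers of dendritic cells, with 5 of 9 kept by the filter, had mean levels of 4.44 and 4.63 in Cnot3+/- livers, against 4.45 and 4.33 in wild-type livers. Of these 9, 1 lay at least 2-fold above both wild-type arrays on Cnot3+/- 2. It was Itgax, at 4.33 and 5.75 in Cnot3+/- livers, against 4.40 and 4.22 in wild-type livers. Markers of B cells, with 3 of 6 kept, had mean levels of 4.26 and 4.18 in Cnot3+/- livers, against 4.56 and 4.41 in wild-type livers. The part of these cells in the class II values was not tested. In whole liver a different number of cells of a type and a different amount of RNA per cell cannot be told apart.

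**Figure D2:**
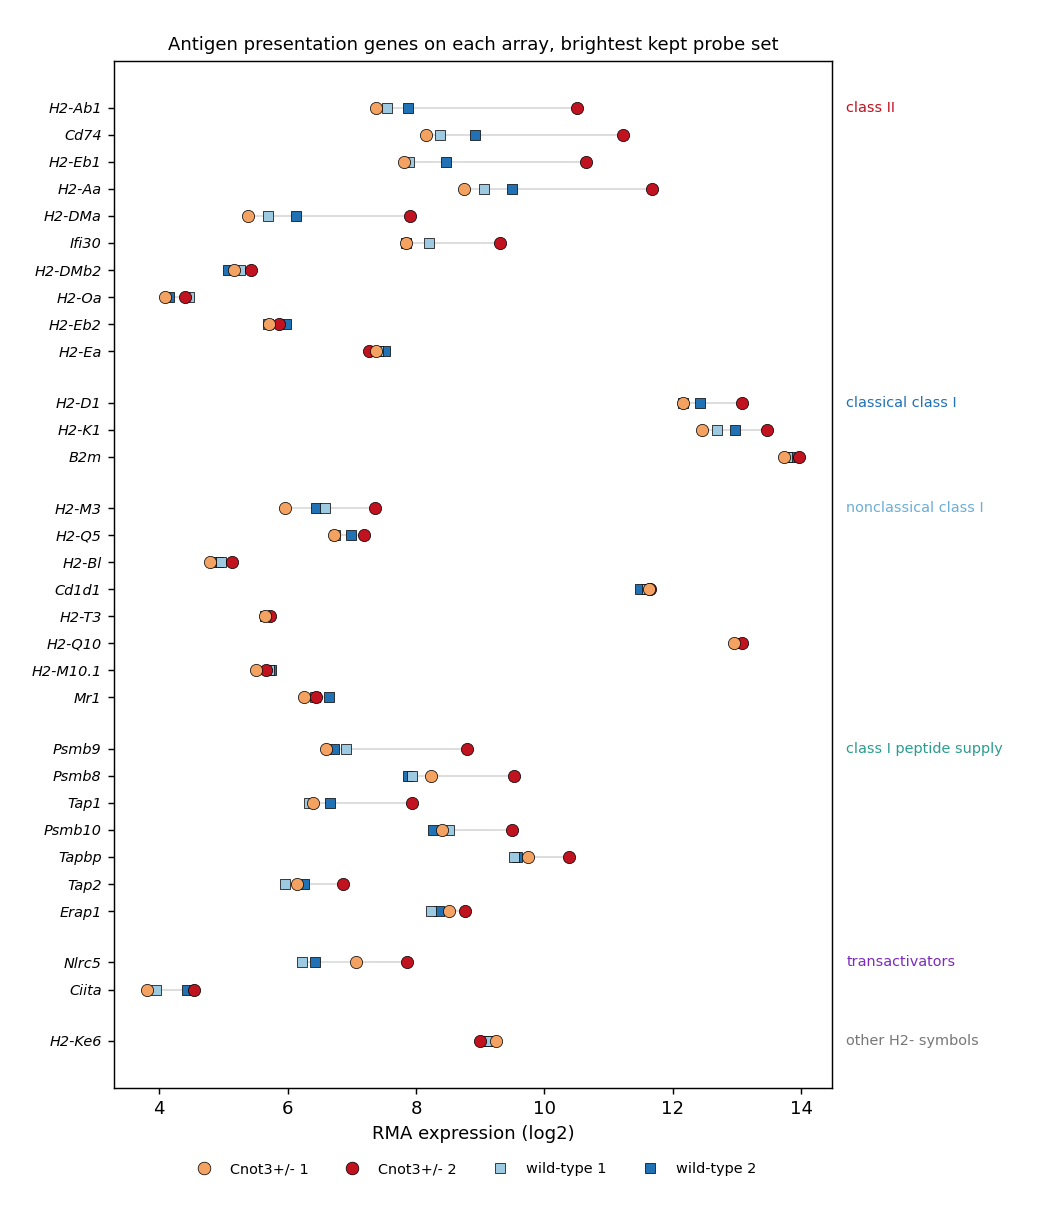
Log2 RMA expression (x axis) of 31 member genes, each through its kept probe set of highest mean, with circles for Cnot3+/- 1 and Cnot3+/- 2 and squares for wild-type 1 and wild-type 2. The class II genes from H2-Ab1 to H2-DMa show Cnot3+/- 2 far to the right and Cnot3+/- 1 at the low end, while B2m, H2-Q10 and Cd1d1 show all arrays close together.

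The class I heavy chains also stood highest on Cnot3+/- 2, by less. H2-K1, one of the classical heavy chains of this strain, stood at 12.46 and 13.46 in Cnot3+/- livers, against 12.69 and 12.97 in wild-type livers. H2-D1, the other, stood at 12.16 and 13.08 in Cnot3+/- livers, against 12.15 and 12.42 in wild-type livers. Cnot3+/- 2 was 1.55-fold the wild-type mean for H2-K1 and 1.73-fold for H2-D1, while Cnot3+/- 1 was 0.774-fold and 0.916-fold. The group differences were 0.13 (SE 0.34) for H2-K1 and 0.33 (SE 0.32) for H2-D1 (limma adjusted p = 1 for both). Without wild-type 1 the H2-K1 difference was -0.01.

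B2m, the light chain common to all of these molecules, was nearly level. It stood at 13.73 and 13.97 in Cnot3+/- livers, against 13.77 and 13.82 in wild-type livers (difference 0.05, SE 0.15, 95% interval -0.33 to 0.43, limma adjusted p = 1). A second probe set also differed by 0.05. These values lie near the top of the array scale, whose maximum was 14.96.

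Probe sets of the classical heavy chains did not all read alike. All 4 probe sets of H2-K1 were higher on Cnot3+/- 2 than on either wild-type array, by 0.54 to 0.90 over the wild-type mean. Of the 9 probe sets of H2-D1, 6 were higher there by 0.63 to 1.34. The other 3 H2-D1 probe sets lay at -0.14 to -0.03. One of them was lower in both Cnot3+/- livers, at 5.10 and 5.04, against 5.18 and 5.19 in wild-type livers (difference -0.11, SE 0.13). Another stood at 4.19 and 4.29 in Cnot3+/- livers, against 4.27 and 4.38 in wild-type livers. Classical heavy chains are close in sequence and vary between strains, and how far each probe set is specific to its gene in this strain was not tested.

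**Figure D3:**
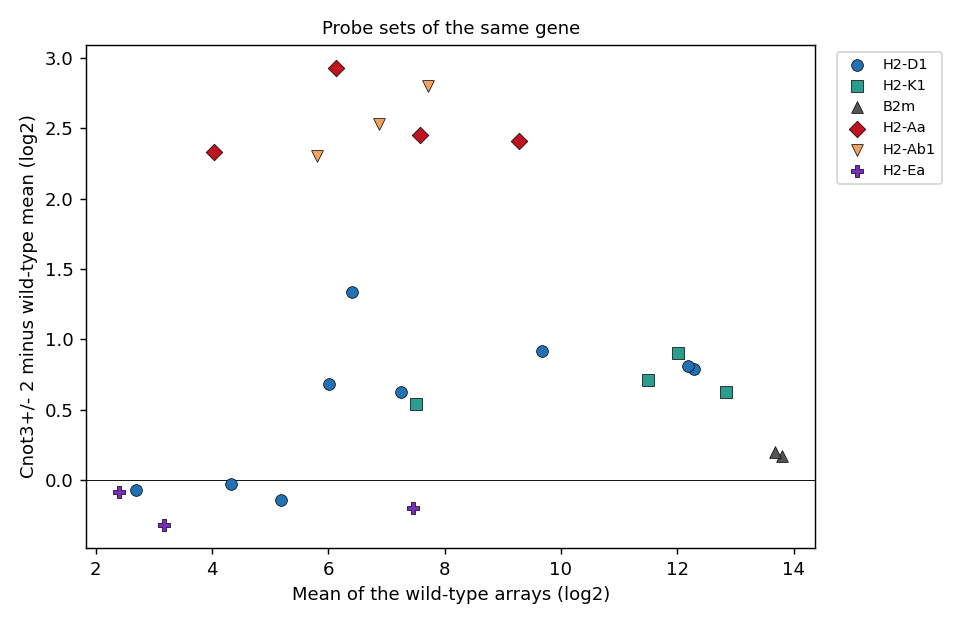
Each point is 1 probe set of H2-D1, H2-K1, B2m, H2-Aa, H2-Ab1 or H2-Ea, with the mean log2 value of the wild-type arrays on the x axis and Cnot3+/- 2 minus that mean on the y axis. The 7 probe sets of H2-Aa and H2-Ab1 lie between 2.30 and 2.93, those of H2-K1 between 0.54 and 0.90, and those of H2-D1 between -0.14 and 1.34.

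Nonclassical class I members, which present unusual ligands to specialised lymphocytes, mostly lay close to wild-type. Only a dim probe set of H2-Q2, left out of the test, lay at least 2-fold above both wild-type arrays on Cnot3+/- 2, at 2.22-fold the wild-type mean. H2-M3, which presents formylated peptides of bacterial or mitochondrial origin, stood at 5.96 and 7.36 in Cnot3+/- livers, against 6.58 and 6.44 in wild-type livers. It was the lowest on Cnot3+/- 1 and the highest on Cnot3+/- 2, at 0.680-fold and 1.80-fold of the wild-type mean, and the group difference was 0.15 (SE 0.45). H2-Q10, a secreted class I molecule made by the liver, stood at 12.95 and 13.08 in Cnot3+/- livers, against 12.99 and 13.03 in wild-type livers. Its difference was 0.00 (SE 0.14, 95% interval -0.35 to 0.35). Cd1d1, which presents lipids to natural killer T cells, stood at 11.63 and 11.64 in Cnot3+/- livers, against 11.59 and 11.48 in wild-type livers. The groups did not overlap for that probe set, but the difference was 0.10 (SE 0.14), and it was 0.04 on a second probe set.

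Mr1, which presents vitamin B metabolites to mucosal-associated invariant T cells, gave readings of opposite sign. One probe set stood at 6.25 and 6.44 in Cnot3+/- livers, against 6.43 and 6.64 in wild-type livers (difference -0.19, SE 0.16). The other stood at 4.33 and 4.73 in Cnot3+/- livers, against 4.53 and 4.41 in wild-type livers (difference 0.06, SE 0.18). Neither passed the test, and both overlapped between the groups.

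Other H2- symbols with a kept probe set differed by at most 0.14 in size. H2-M10.1 stood at 5.51 and 5.66 in Cnot3+/- livers, against 5.71 and 5.74 in wild-type livers. H2-Q5, listed by RefSeq as a transcribed pseudogene, stood at 6.72 and 7.19 in Cnot3+/- livers, against 6.74 and 6.98 in wild-type livers. H2-Bl, also listed as one, stood at 4.79 and 5.13 in Cnot3+/- livers, against 4.96 and 4.92 in wild-type livers. Of these, H2-M10.1 was without overlap, with a difference of -0.14 (SE 0.14). H2-T3 stood at 5.64 and 5.73 in Cnot3+/- livers, against 5.64 and 5.67 in wild-type livers. H2-Ke6, an oxidoreductase gene that lies in the MHC but presents no antigen, stood at 9.24 and 8.99 in Cnot3+/- livers, against 9.11 and 9.14 in wild-type livers. Of the 16 nonclassical class I probe sets 8 were higher in Cnot3+/- livers and 8 were lower, and the median difference was 0.01.

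The subunits of the immunoproteasome, which replace the constitutive catalytic subunits of the proteasome under interferon gamma, stood high on Cnot3+/- 2. Psmb9 stood at 6.60 and 8.79 in Cnot3+/- livers, against 6.91 and 6.72 in wild-type livers. Psmb8 stood at 8.24 and 9.52 in Cnot3+/- livers, against 7.94 and 7.88 in wild-type livers. Psmb10 stood at 8.40 and 9.49 in Cnot3+/- livers, against 8.52 and 8.26 in wild-type livers. On Cnot3+/- 2 the values were 3.92-fold, 3.05-fold and 2.14-fold the wild-type mean. Psmb8 was above both wild-type arrays on Cnot3+/- 1 as well, at 1.26-fold, whereas Psmb9 was at 0.860-fold and Psmb10 at 1.01-fold there. The group differences were 0.88 (SE 0.68) for Psmb9, 0.97 (SE 0.41) for Psmb8 and 0.55 (SE 0.36) for Psmb10, with limma adjusted p = 1 for each. The constitutive subunits that they replace, Psmb6, Psmb5 and Psmb7, differed by 0.07 (SE 0.17), 0.04 (SE 0.15) and 0.06 (SE 0.15), and on Cnot3+/- 2 by -0.01, 0.13 and 0.10.

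The peptide transporter and loading genes lay above wild-type on Cnot3+/- 2 too. Tap1, one chain of the transporter, stood at 6.40 and 7.93 in Cnot3+/- livers, against 6.34 and 6.66 in wild-type livers. Tap2, the other chain, stood at 6.14 and 6.87 in Cnot3+/- livers, against 5.96 and 6.26 in wild-type livers. For both, Cnot3+/- 1 lay between the wild-type arrays. Tapbp, which encodes tapasin, stood at 9.74 and 10.38 in Cnot3+/- livers, against 9.53 and 9.57 in wild-type livers. Erap1, the aminopeptidase that trims peptides, stood at 8.52 and 8.76 in Cnot3+/- livers, against 8.23 and 8.36 in wild-type livers. The groups did not overlap for these Tapbp and Erap1 probe sets, but they did on a second probe set of each gene. The differences were 0.67 (SE 0.49) for Tap1, 0.39 (SE 0.28) for Tap2, 0.51 (SE 0.24) for Tapbp and 0.35 (SE 0.16) for Erap1, and limma's adjusted p was 1 for each.

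Among the 13 probe sets of peptide supply, 10 were higher and 3 were lower, and the median difference was 0.47. The 3 lower ones were dim Tap1 probe sets left out of the test. Without Cnot3+/- 2 the median was -0.04, and 6 of the 13 were higher.

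Nlrc5, the transactivator of class I genes, was the member with the smallest p. It stood at 7.06 and 7.86 in Cnot3+/- livers, against 6.22 and 6.43 in wild-type livers. Both Cnot3+/- livers lay above both wild-type livers, at 1.67-fold and 2.90-fold the wild-type mean. The difference was 1.14 (SE 0.28, n = 2 per group, 95% interval 0.43 to 1.85), with an unadjusted limma p of 0.00865 and an adjusted p of 1. With 1 array left out the difference ran from 0.74 without Cnot3+/- 2 to 1.53 without Cnot3+/- 1. Its sign could not change there, because the groups do not overlap. Of all members Nlrc5 had the highest ratio on Cnot3+/- 1, ahead of a dim Psmb8 probe set at 1.36-fold. Ciita, the transactivator of class II genes, stood at 3.81 and 4.54 in Cnot3+/- livers, against 3.95 and 4.44 in wild-type livers (difference -0.02, SE 0.30). That probe set lay just above the filter, which fell at 4.06 for the mean of the 4 arrays, and the other Ciita probe sets were left out as dim.

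In 9 of the 71 members both Cnot3+/- arrays lay above both wild-type arrays, and in 4 both lay below, where 13.2% and 17.9% of all probe sets did. The 18 members left out as dim had values from 2.15 to 4.20 and differences from -0.30 to 0.64, with 6 higher and 12 lower. All probe sets of 6 genes fell there. The largest of these differences was that of H2-Q2, at 2.40 and 3.43 in Cnot3+/- livers, against 2.15 and 2.40 in wild-type livers.

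Further 15 probe sets carry several symbols, at least 1 of them H2-, and are no members. They include those of other nonclassical genes, and 5 of the 15 lay at least 2-fold above both wild-type arrays on Cnot3+/- 2. The probe set shared by H2-Q7 and H2-Q9, which encode Qa-2, read 9.31 and 10.75 in Cnot3+/- livers, against 9.05 and 9.55 in wild-type livers. One shared by H2-DMb1 and H2-DMb2 read 5.05 and 6.93 in Cnot3+/- livers, against 5.26 and 5.42 in wild-type livers. The probe sets of H2-DMb2 alone showed no such height on Cnot3+/- 2.

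Promoters of 4 member genes are printed to show the sequence in front of genes of which some stood high on the same array. They are B2m and, of the genes with a window in the RefSeq table (25 of 37), the 3 of largest difference. Each is 300 bases of build GRCm38.p6, from 250 before to 50 after the RefSeq start, read 5′ to 3′ on the strand of the gene. Capitals mark matches on either strand to the interferon-stimulated response element core GAAANNGAA, the interferon gamma-activated site TTCNNNGAA, the CCAAT box CCAAT (the Y box of MHC promoters reads ATTGG) and the cyclic AMP element half-site TGACG (part of their X2 box).
B2m, chr2:122147437-122147736, plus strand: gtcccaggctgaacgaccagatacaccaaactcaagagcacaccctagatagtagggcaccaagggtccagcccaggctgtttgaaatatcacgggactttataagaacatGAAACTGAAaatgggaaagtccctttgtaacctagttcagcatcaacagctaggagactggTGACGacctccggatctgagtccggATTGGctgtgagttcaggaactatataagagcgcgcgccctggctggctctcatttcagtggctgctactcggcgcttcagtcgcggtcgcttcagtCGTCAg
H2-Eb1, chr17:34305617-34305916, plus strand: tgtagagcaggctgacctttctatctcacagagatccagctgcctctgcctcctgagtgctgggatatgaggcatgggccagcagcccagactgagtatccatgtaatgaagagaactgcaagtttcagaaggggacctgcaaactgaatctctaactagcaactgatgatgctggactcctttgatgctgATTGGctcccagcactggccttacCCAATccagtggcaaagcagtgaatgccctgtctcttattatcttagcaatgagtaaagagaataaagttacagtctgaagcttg
Psmb8, chr17:34197945-34198244, plus strand: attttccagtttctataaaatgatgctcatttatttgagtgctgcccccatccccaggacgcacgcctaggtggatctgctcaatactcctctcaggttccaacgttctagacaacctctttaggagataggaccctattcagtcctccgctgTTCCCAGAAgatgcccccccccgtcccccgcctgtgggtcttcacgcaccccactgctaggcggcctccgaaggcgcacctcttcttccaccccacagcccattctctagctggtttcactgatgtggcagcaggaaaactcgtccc
H2-Aa, chr17:34287774-34288073, minus strand: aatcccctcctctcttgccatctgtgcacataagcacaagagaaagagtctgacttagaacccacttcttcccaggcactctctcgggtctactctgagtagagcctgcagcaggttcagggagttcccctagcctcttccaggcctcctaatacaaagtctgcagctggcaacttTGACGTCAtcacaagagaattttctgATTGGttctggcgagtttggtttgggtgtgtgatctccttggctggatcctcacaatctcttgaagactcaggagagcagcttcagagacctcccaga

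In H2-Aa the half-site on both strands (bases 177 to 184 of the window) is followed by a CCAAT box read on the other strand (bases 203 to 207). B2m, whose expression was level, holds a half-site (bases 173 to 177) and a CCAAT box (bases 198 to 202) in the same order, behind a response element core (bases 112 to 120). H2-Eb1 holds CCAAT boxes only, and Psmb8 holds 1 interferon gamma-activated site (bases 154 to 162). Of the 28 windows of member genes, some of which overlap, 20 hold a CCAAT box, 10 a half-site, 3 an interferon gamma-activated site and 2 a response element core. In all 32851 windows of the table the shares were 37.4%, 20.8%, 8.3% and 8.56%. Psmb9 and Tap1 are transcribed away from each other, and 275 bases of their windows are the same DNA. Their values on Cnot3+/- 2 were 3.92-fold and 2.69-fold the wild-type mean. A match of letters is a description and no evidence of binding.

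Other genes of the pathway were described by lists. None of the genes in the lists below passed limma's test over all probe sets (0 of each list). Endosomal proteases of the class II route were higher in 5 of 5, with a median difference of 0.32. Their medians against wild-type were -0.16 on Cnot3+/- 1 and 0.66 on Cnot3+/- 2. Among them Ctss, which encodes the cathepsin S that degrades the invariant chain, stood at 8.88 and 10.99 in Cnot3+/- livers, against 9.20 and 9.33 in wild-type livers. Lgmn, which encodes legumain, stood at 7.93 and 9.59 in Cnot3+/- livers, against 8.06 and 8.38 in wild-type livers. Both were lower on Cnot3+/- 1 than on either wild-type array, as the class II chains were, but the other proteases were not. Ctsl went another way, at 0.45 above the wild-type mean on Cnot3+/- 1 and 0.19 on Cnot3+/- 2. The factors that bind class II promoters in all cells did not share the pattern of the class II chains. Of 7 such genes 6 were higher, with a median difference of 0.05, and Rfx5, which binds the X box, differed by 0.11 (SE 0.17), with 0.22 on Cnot3+/- 1 and 0.01 on Cnot3+/- 2.

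Interferon gamma-responsive genes outside antigen presentation stood highest of all lists on Cnot3+/- 2. Of 11 with a probe set, 10 lay at least 2-fold above both wild-type arrays there, at a median of 2.77 above the wild-type mean, and 0 did so on Cnot3+/- 1, where the median was 0.16. Cxcl10, a chemokine gene known as a target of interferon gamma, lay -0.03 from the wild-type mean on Cnot3+/- 1 and 3.85 from it on Cnot3+/- 2. Gbp6, a guanylate-binding protein gene, stood at 6.07 and 10.08 in Cnot3+/- livers, against 5.59 and 5.76 in wild-type livers. Ifng itself was left out as dim, at 2.73 and 3.11 in Cnot3+/- livers, against 2.74 and 2.78 in wild-type livers. The signalling gene Irf1, a transcription factor that interferon gamma induces, lay -0.09 from the wild-type mean on Cnot3+/- 1 and 1.45 from it on Cnot3+/- 2. Irf8, a factor of macrophages and dendritic cells, stood at 6.06 and 7.55 in Cnot3+/- livers, against 6.04 and 6.04 in wild-type livers. In the interferon gamma signalling list 6 of 9 genes were higher, with a median difference of 0.11. Its medians were -0.03 on Cnot3+/- 1 and 0.31 on Cnot3+/- 2.

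In 8 of 16 type I interferon-stimulated genes, as in Nlrc5, both Cnot3+/- arrays lay above both wild-type arrays (13.2% of all probe sets). The same held in 6 of the 11 interferon gamma-responsive genes. Both arrays lay below in 0 of the 16 and in 1 of the 11 (17.9% of all). Of the 16 type I genes 13 were higher, with a median difference of 0.61 (0.10 on Cnot3+/- 1 and 1.08 on Cnot3+/- 2). On Cnot3+/- 2, 8 of the 16 lay at least 2-fold above both wild-type arrays, but 1 did on Cnot3+/- 1. That gene was Usp18, a brake on type I interferon signalling, at 7.37 and 8.39 in Cnot3+/- livers, against 5.59 and 5.85 in wild-type livers (difference 2.16, SE 0.35, limma adjusted p = 1).

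Markers of T and NK cells also stood high on Cnot3+/- 2. Of 13 with a probe set, 10 kept by the filter, 6 lay at least 2-fold above both wild-type arrays there and 0 on Cnot3+/- 1. Some of these 6 were left out as dim, among them Gzma. Others passed the filter only through their value on Cnot3+/- 2, among them Klrd1. The mean level of the 13 was 4.30 and 5.49 in Cnot3+/- livers, against 4.39 and 4.32 in wild-type livers. Nkg7, a granule protein gene of cytotoxic cells, stood at 3.99 and 6.85 in Cnot3+/- livers, against 4.62 and 3.98 in wild-type livers. Of the 13, 2 lay below both wild-type arrays on Cnot3+/- 2, Prf1 and the dim Ncr1 (38.9% of all probe sets did). Prf1 stood at 4.90 and 3.97 in Cnot3+/- livers, against 4.47 and 4.42 in wild-type livers. The part of T and NK cells in the values of Psmb9 and the class I genes was not tested. Sinusoidal endothelial markers went another way, with 8 of 8 lower in Cnot3+/- livers and a median of -0.89 on Cnot3+/- 1 and -0.24 on Cnot3+/- 2.

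The remaining lists had medians within 0.43 of wild-type on both Cnot3+/- arrays. Accessory genes of class I peptide supply had 10 of 14 higher, with a median difference of 0.09; Npepps, an aminopeptidase gene, differed by 0.49 (SE 0.18), with 0.45 on Cnot3+/- 1 and 0.53 on Cnot3+/- 2. Tapbpl, a relative of tapasin, differed by 0.31 (SE 0.23), with 0.03 on Cnot3+/- 1 and 0.59 on Cnot3+/- 2. Class I-like genes outside the H2 region had 1 of 5 higher, with a median difference of -0.04. That gene was Procr, the endothelial protein C receptor, at 3.67 and 5.37 in Cnot3+/- livers, against 3.61 and 3.87 in wild-type livers. It passed the filter, at 4.06 for the mean, only through its value on Cnot3+/- 2. Costimulatory genes had 2 of 6 higher; Cd274, which encodes PD-L1, stood at 4.39 and 5.82 in Cnot3+/- livers, against 4.20 and 4.37 in wild-type livers. Neutrophil markers had medians of -0.04 on Cnot3+/- 1 and 0.12 on Cnot3+/- 2, and stellate cell markers of -0.20 and 0.24 on the same arrays. Cholangiocyte markers had medians of 0.27 on Cnot3+/- 1 and 0.43 on Cnot3+/- 2, and hepatocyte markers of 0.07 and -0.04.

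**Figure D4:**
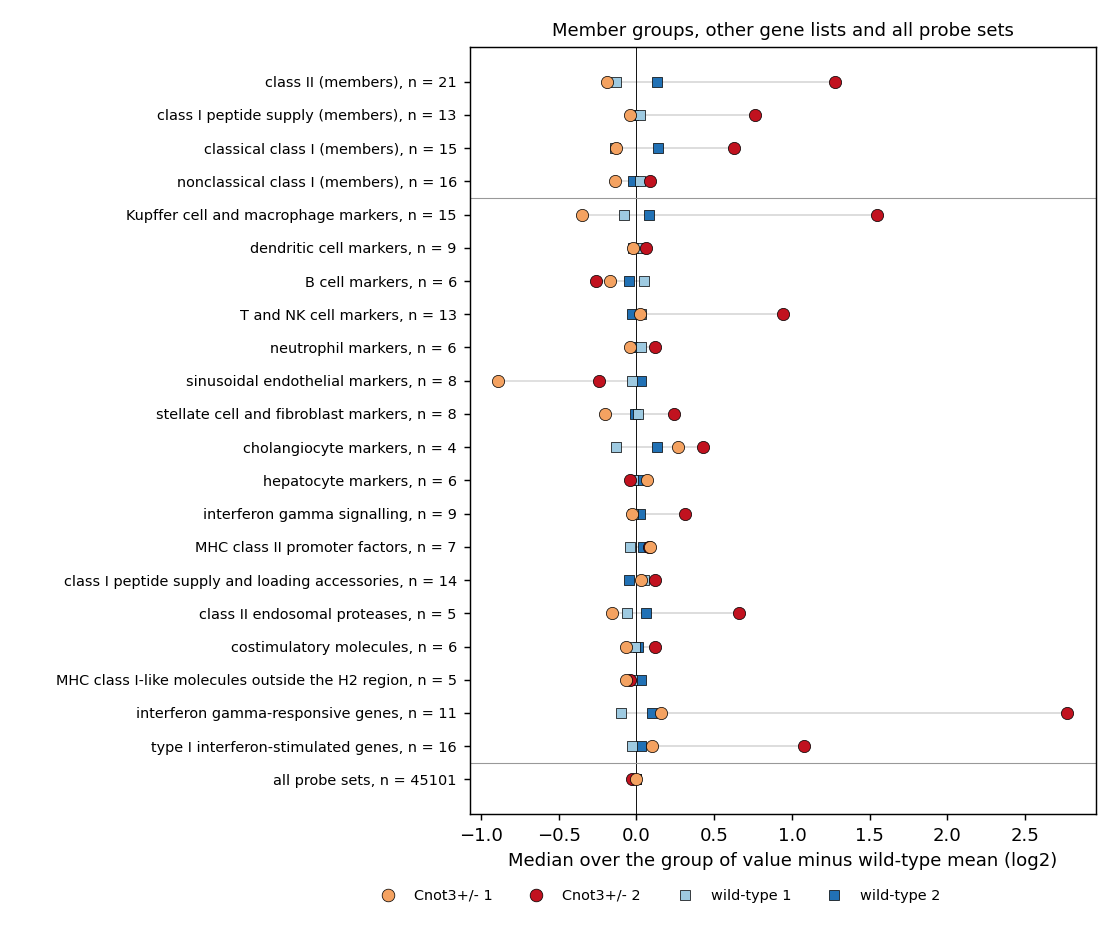
Medians over 4 groups of member probe sets (top block), over 17 gene lists (middle block, 1 probe set per gene) and over all probe sets (bottom), of the log2 value on each array minus the wild-type mean, with circles for the Cnot3+/- arrays and squares for the wild-type arrays. Class II members, macrophage markers and interferon gamma-responsive genes have Cnot3+/- 2 at 1.28, 1.55 and 2.77, with Cnot3+/- 1 at -0.19, -0.35 and 0.16.

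Leaving out Cnot3+/- 1 shows how far the picture rests on a single liver. With 1 Cnot3+/- array the error comes from the wild-type pair and limma's prior alone. The Cnot3+/- arrays lay at least 2-fold apart in 723 kept probe sets, the wild-type arrays in 166. That error is therefore likely too small, and the counts below describe a single mouse and do not test the genotype. The members tested include several probe sets of some genes. An H2-Aa probe set among them passed the filter only through Cnot3+/- 2 (6.37, against 3.30 on Cnot3+/- 1). With Cnot3+/- 2 alone against the wild-type arrays, and the lone array assumed to vary like the others, 29 of the 53 tested members had an unadjusted limma p under 0.05 (5.97% of all probe sets), all of them higher, and the smallest adjusted p was 0.0767. With Cnot3+/- 1 alone, 3 of the 53 did (4.12% of all), 1 of them higher.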

How the data were processed

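Deposited values are on a log2 scale, and RMA is the method that the submitters' processing notes name. The sources used here do not give its version or which arrays were normalized as a set. The log2 scale was taken from the values (1.85 to 14.96, array medians 4.62 to 4.66). All 4 columns were mapped to samples and 0 remained. Names came from the platform annotation (34958 with 1 symbol, 932 with several, 9211 with none). All 71 members matched the GRCm38.p6 gene table by Entrez identifier, and 0 symbols changed.

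Values were used as deposited. The test left out the 40% of probe sets with the lowest means (below 4.06) and kept 27061. These went into limma's lmFit and eBayes (limma 3.58.1, R 4.3.3), as a two-sided test of Cnot3+/- against wild-type, with no covariate, Benjamini-Hochberg adjustment and a threshold of 0.05. The fit had 2 residual degrees of freedom and a prior of 3.41 (prior SD 0.167). The script was tested on simulated data. Precision is limited by having 2 arrays a group. Medians and counts over members use all 71, without the filter. Other lists use 1 probe set per gene.

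Named genes are all 31 with a kept probe set, through that of highest mean, plus any other kept probe set that differs in sign or by over 0.5. Genes named from each other list are among the 4 of largest absolute difference in it, and not always the largest. Alb, Ifng, Psmb5, Psmb6, Psmb7, H2-Ob, H2-Q2, Prf1, Ncr1 and further probe sets of named genes fall outside this rule. They were named, after their values were seen, for their role, as an extreme or to show where probe sets or genes of a list differ. The members and lists were chosen with earlier results of these data known. Alternatives were other filters, 1 probe set per gene, quantile normalization, an intensity trend, no moderation, a replicate block and leaving out each array.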

Additional observations from a re-analysis of the deposited data

How the results depend on the processing

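No member passed under any of the alternatives run: 0 of the members tested, and 0 genes of the other lists, had an adjusted p under 0.05 in limma with another filter, 1 probe set per gene, quantile normalization, an intensity trend, no moderation, the replicate block, or any 1 array left out. Of all probe sets, 2 passed upward and 0 downward in the fit reported. That became 1 upward and 2 downward without moderation, 0 upward with the replicate number as a block, and 0 upward when any 1 array was left out. The labels do not say that a replicate number marks a shared litter or day, and the deviations of same-numbered arrays from their group means correlated at 0.172 over the kept probe sets and at 0.461 over the kept members. With this block the lowest adjusted p of a member was 0.828.

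With all arrays used, 0 of 224 refitted values of the named probe sets changed sign. Among these settings only quantile normalization can alter the difference of a probe set. Under the others its sign was fixed, so most of this count is no check. Median differences depended on the Cnot3+/- array left out. With any 1 array left out they ran from -0.12 to 0.34 over all members, -0.04 to 0.76 for class I peptide supply, -0.19 to 1.28 for class II, -0.13 to 0.63 for classical class I, -0.14 to 0.09 for nonclassical class I and -0.12 to 0.25 for the transactivators. With a filter at 60% the median was 0.35 over all members, against 0.13 as reported, 1.01 for class II, against 0.55, and 1.14 for the transactivators, of which Nlrc5 alone remained. With 1 probe set per gene the transactivators had 0.56 and classical class I 0.13, against 0.20 as reported. Without 1 array, 30 of 136 values, in 22 probe sets, changed sign, 18 of them without Cnot3+/- 2. Their differences with 1 array left out ran from -0.22 to 1.97 for Psmb9, -0.10 to 1.43 for Tap1, -0.50 to 2.57 for Cd74, -0.53 to 2.41 for H2-Aa, -0.34 to 2.80 for H2-Ab1, -0.52 to 2.00 for H2-DMa, 0.00 to 0.27 for H2-DMb2, -0.36 to 2.47 for H2-Eb1, -0.18 to 0.10 for H2-Eb2, -0.22 to 0.09 for H2-Oa, -0.18 to 1.28 for Ifi30, -0.07 to 0.17 for B2m, -0.13 to 0.79 for H2-D1, -0.37 to 0.63 for H2-K1, -0.15 to 0.19 for H2-Bl, -0.56 to 0.85 for H2-M3, -0.07 to 0.07 for H2-Q10, -0.13 to 0.33 for H2-Q5, -0.01 to 0.08 for H2-T3, -0.14 to 0.12 for H2-Ke6, -0.39 to 0.34 for Ciita and -0.14 to 0.26 for Mr1. For Mr1 this is its second probe set. The cause of these changes was not tested, beyond the fact that each such setting sets 1 array against 2.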
